A study of Mus musculus with 24 samples.

Results

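The 9 protein-coding genes of rod nuclear architecture and gene silencing described here were measured in mouse retinal organoids (MRO), namely the lamin B receptor gene Lbr, the lamin genes Lmna, Lmnb1 and Lmnb2, the heterochromatin protein 1 (HP1) genes Cbx1, Cbx3 and Cbx5, and the photoreceptor SAM domain genes Samd7 and Samd11. They were chosen by symbol from 46603 annotated genes, and all 9 were found, counted in each of the 24 organoids and kept for testing. The MRO were grown from wildtype E14Tg2a mouse embryonic stem cells, 1 cell line, by a protocol in which each organoid is cut into parts. By the labels all MRO are controls that received solvent water, though the sample titles carry Ctrl at every timepoint but the first. The paper's protocol also adds a synthetic retinoid analog for some days before the first sampling. Individual organoids were sampled on day (D) 20, 22, 25 and 30 of differentiation, 6 MRO at each timepoint from 1 independent experiment, so p-values measure the spread between organoids of that experiment. RNA was depleted of ribosomal RNA and sequenced in bulk from whole organoids. A lower level can therefore come from fewer cells of a type or from less RNA per cell, and these cannot be told apart.

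The nuclear lamina is a meshwork of A-type and B-type lamins under the inner nuclear membrane, and heterochromatin is held against it by tethers of which LBR and the A-type lamins are the best known. In rods of nocturnal mammals such as the mouse, both tethers are lost or kept low as the cell matures, and heterochromatin gathers in the centre of the nucleus, an order called inverted. HP1 proteins bind histone H3 methylated at lysine 9 and pack constitutive heterochromatin, while SAMD7 and SAMD11 are photoreceptor proteins that act with Polycomb repressive complex 1 (PRC1) to keep genes of other cell types silent in rods.

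Samd7 and Samd11 rose steeply between D20 and D25, while Lbr, Lmnb1, Cbx1 and Cbx3 fell between D20 and D30. Lmna rose from the lowest level of the 9 genes, and Lmnb2 and Cbx5 did not pass the test. The promoters of the genes at both ends of this range are shown because the photoreceptor pair rose together while Lbr and Cbx1 had the largest falls. Each sequence is taken from the 250 bases before the start site of a RefSeq transcript (build GRCm38.p6). It reads 5′ to 3′ on the strand of the gene. Bases that fall in an annotated exon are left out, 35 for Samd11 and 8 for Cbx1. Positions below count from the start site, which the printed letters of Samd11 and Cbx1 therefore do not reach. Capitals mark matches on either strand to TAATCC, the letters bound by CRX and OTX2, to TGCTGA, part of the site of NRL, and to CCAAT, the box bound by NF-Y.
Samd7: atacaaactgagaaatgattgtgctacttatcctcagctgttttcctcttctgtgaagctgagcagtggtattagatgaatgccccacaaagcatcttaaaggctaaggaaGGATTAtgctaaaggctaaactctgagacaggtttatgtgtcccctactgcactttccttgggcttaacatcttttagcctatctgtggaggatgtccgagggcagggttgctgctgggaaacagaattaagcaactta
Samd11: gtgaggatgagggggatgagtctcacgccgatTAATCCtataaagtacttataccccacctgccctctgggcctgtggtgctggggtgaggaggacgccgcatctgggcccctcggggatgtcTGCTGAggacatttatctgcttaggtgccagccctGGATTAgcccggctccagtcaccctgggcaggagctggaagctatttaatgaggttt
Lbr: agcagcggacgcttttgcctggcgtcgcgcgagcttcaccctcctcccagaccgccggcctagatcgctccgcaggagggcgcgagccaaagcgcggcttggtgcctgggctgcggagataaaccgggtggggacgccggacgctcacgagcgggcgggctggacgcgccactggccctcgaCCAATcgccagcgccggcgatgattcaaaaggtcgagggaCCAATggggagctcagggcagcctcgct
Cbx1: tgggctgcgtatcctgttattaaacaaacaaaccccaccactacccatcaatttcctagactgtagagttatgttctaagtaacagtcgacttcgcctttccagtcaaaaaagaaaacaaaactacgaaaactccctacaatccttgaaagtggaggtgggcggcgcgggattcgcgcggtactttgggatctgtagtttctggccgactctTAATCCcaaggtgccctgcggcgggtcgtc

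The Samd7 sequence covers chr3:30746043-30746292 on the plus strand, and its GGATTA, the reverse complement of TAATCC, begins 139 bases before the start site. The Samd11 sequence covers chr4:156255353-156255567 on the minus strand and holds TAATCC at 193, TGCTGA at 102 and GGATTA at 67 bases before the start. The Lbr sequence (chr1:181842402-181842651, minus strand) holds CCAAT at 68 and 28 bases, and that of Cbx1 (chr11:96788885-96789126, plus strand) holds TAATCC at 38 bases. The Lbr and Samd11 sequences lie inside the annotated spans of these genes, which reach further upstream, to 181843046 and 156255657. Of 32851 windows of 250 bases before RefSeq start sites, 6.25% hold TAATCC or its reverse complement, 16.1% hold TGCTGA and 33.8% hold CCAAT, so that a match alone sets no gene apart. TAATCC stood before the rising Samd7 and Samd11 and before the falling Cbx1. In all, 8 of the 9 genes had 12 windows, and the other matches were ATTGG, the reverse complement of CCAAT, at 24 bases in Cbx5, TTTGGCGC, an E2F-type sequence held by 0.417% of windows, at 168 bases in Cbx3, CCAAT at 131 bases in a window of Lmna and TGCTGA at 165 bases in a window of Lmnb2. TTTCGCGC, another E2F-type sequence held by 0.256% of windows, matched none of them.

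Libraries held between 13634846 and 19477108 counted reads, at which 3 counts equal 0.154 to 0.22 CPM (reads of a gene relative to all counted reads of the library). The lowest count of any of the 9 genes in any organoid was 76, for Lmna. CPM below are scaled to the normalized library size, and fold changes are those of the edgeR quasi-likelihood test, called at an adjusted p of 0.01 after Benjamini-Hochberg adjustment over 46949 features. Between D22 and D20, 2 of the 9 genes were higher and none lower, where 1.9% of all features and 3.32% of annotated genes changed (2.56% higher, 0.763% lower). Between D25 and D22 the same 2 genes were higher and none lower, beside 5.28% of all features and 10.2% of annotated genes (7.33% higher, 2.92% lower). Between D30 and D25 none of the 9 passed in edgeR or in DESeq2, beside 3.51% of features and 7.38% of annotated genes (4.55% higher, 2.83% lower). At an unadjusted p below 0.05 there were 3 of the 9, beside 17.9% of features and 28.9% of annotated genes. Over the whole interval from D20 to D30, 3 genes were higher and 4 lower, beside 26.8% of features and 41.8% of annotated genes (25.1% higher, 16.7% lower). In 6 of the 9 genes the organoids of D20 and D30 did not overlap, beside 18.9% of features and 29.7% of annotated genes. A joint test of the 4 timepoints called 7 of the 9, beside 27.2% of all features and 43.9% of annotated genes. The median log2 fold change of the 9 genes from D20 to D30 was −0.26, against −0.04 over all features and 0.10 over annotated genes.

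**Figure D1:**
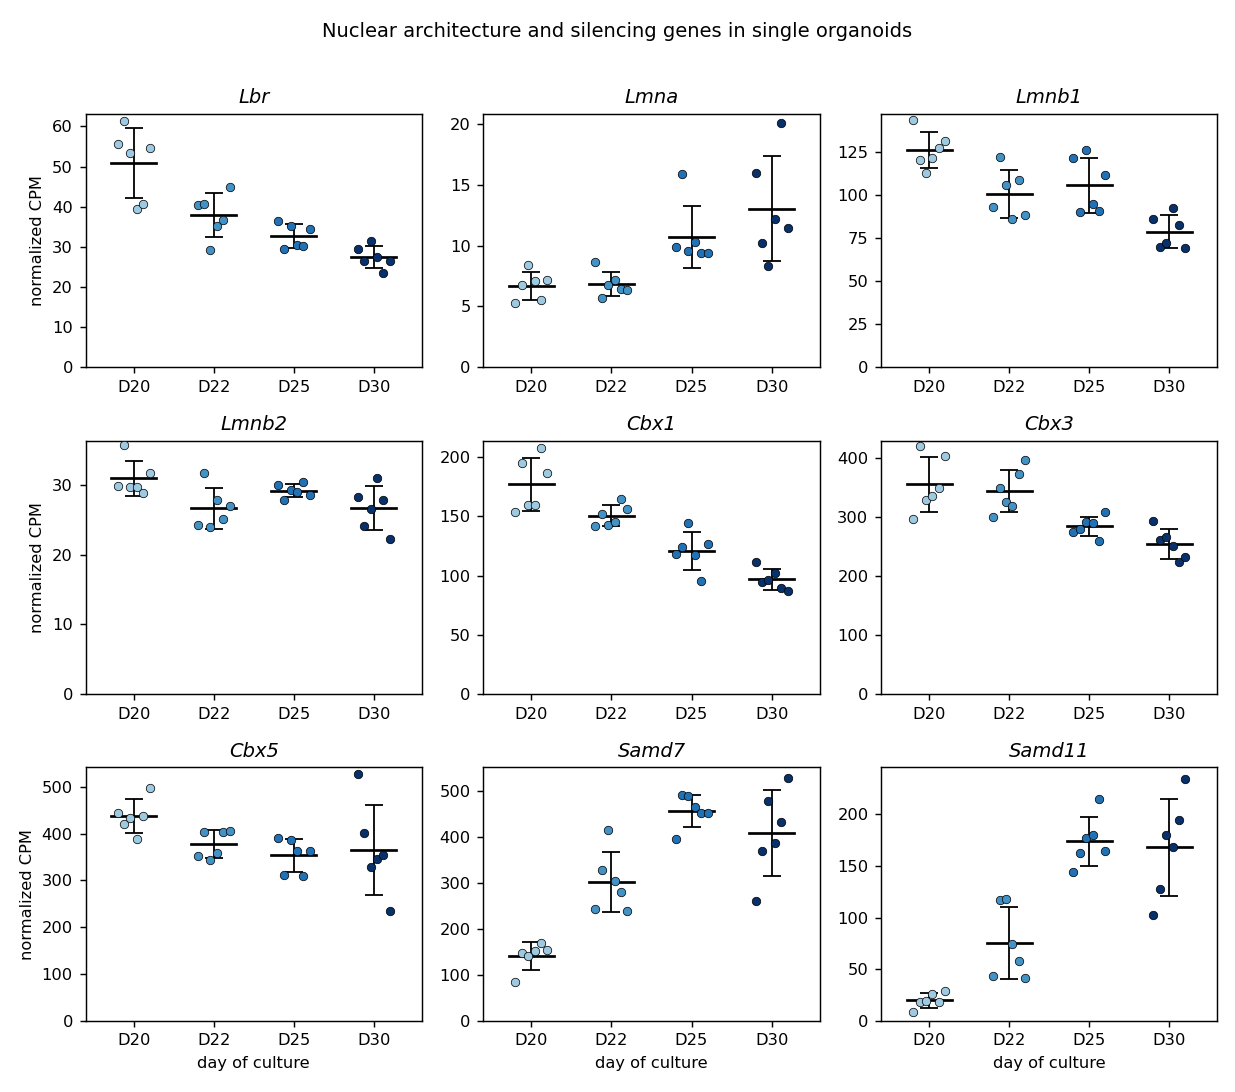
Normalized CPM (y axis, from 0) of each gene in single organoids at D20, D22, D25 and D30 (x axis). Points are organoids, long bars the mean and whiskers the SD of 6 MRO. Lbr fell from a mean of 50.8 to 27.4 CPM, Lmna rose from 6.70 to 13.1, Samd11 rose from 19.8 to 168, and 1 D30 organoid had 527 CPM of Cbx5.

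Samd7 (chr3:30746293-30767174) and Samd11 (chr4:156246966-156255657) encode the photoreceptor proteins of this group. Samd7 was measured at 83.3 to 170 CPM in D20 organoids, with a median of 150. D22 organoids held 238 to 414 CPM (median 292), D25 organoids 395 to 490 (median 458), and D30 organoids 260 to 528 (median 409). Every D22 organoid was above every D20 organoid, the D22 and D25 organoids overlapped slightly, and the D30 organoids spread from within the D22 range to above that of D25. The rise from D20 to D22 was 2.14-fold (log2 fold change 1.10, SE 0.15, edgeR adjusted p = 3.94e-05). From D22 to D25 it was 1.52-fold (0.60, SE 0.15, adjusted p = 0.00721). This second step was close to the threshold, and leaving out 1 organoid gave an adjusted p between 0.0122 and 0.0249 in 9 of 12 cases, the exceptions being D22 replicates 2 and 3 and D25 replicate 1, while a test of annotated genes only gave 0.52 (adjusted p = 0.0272). The change from D25 to D30 was −0.16 (adjusted p = 0.658), and over the whole interval Samd7 was 2.90-fold higher (1.54, SE 0.15, adjusted p = 1.66e-09).

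Samd11 had its lowest and highest D20 organoid at 8.67 and 29.1 CPM and its median at 18.7. These values were 41.4, 118 and 66.3 for D22, 144, 215 and 171 for D25, and 103, 234 and 174 for D30. No organoid of an earlier timepoint reached the next one up to D25, and D25 and D30 overlapped. Samd11 rose 3.79-fold to D22 (1.92, SE 0.25, adjusted p = 2.40e-05) and a further 2.31-fold to D25 (1.21, SE 0.24, adjusted p = 0.0012), with −0.05 thereafter (adjusted p = 0.954). Its rise of 8.47-fold from D20 to D30 (3.08, SE 0.26, adjusted p = 7.28e-11) was the largest change among the 9 genes. At its 3′ end Samd11 shares 598 exonic bases with Noc2l, which lies on the other strand, and near its start 426 with the antisense gene Gm47252, which was not analysed here. Noc2l fell over the interval (log2 fold change −0.82, adjusted p = 1.75e-05). Whether the counting used the strand is not given in the sources used here, and the part of reads from either gene in the counts of Samd11 was not tested.

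The 2 genes did not rise at the same pace. Counts of Samd11 per count of Samd7 in the same organoid had a median of 0.130 at D20 (0.104 to 0.190), 0.226 at D22 (0.174 to 0.356), 0.365 at D25 (0.332 to 0.476) and 0.416 at D30 (0.347 to 0.451). The log2 ratio rose by 0.79 to D22 (adjusted p = 0.0146) and by 0.70 to D25 (adjusted p = 0.0107) in two-sided exact permutation tests over 6 and 6 organoids, adjusted over 32 such tests, of which the smallest possible p is 0.00216. From D25 to D30 the difference was 0.10 (exact permutation test, adjusted p = 0.344), so the shift toward Samd11 was detected up to D25 only.

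Rod markers rose over the same days, so both genes were also set against Crx, the transcription factor gene of all photoreceptor precursors. Samd7 counts per Crx count had a median of 0.230 at D20 (0.144 to 0.271), 0.349 at D22 (0.264 to 0.397), 0.465 at D25 (0.413 to 0.501) and 0.537 at D30 (0.484 to 0.597). For Samd11 these medians were 0.0297, 0.0815, 0.182 and 0.220. Both ratios rose at each step. The log2 ratio of Samd7 to Crx changed by 0.63, 0.45 and 0.21 (exact permutation test, adjusted p = 0.0107, 0.0063 and 0.0146), and that of Samd11 to Crx by 1.42, 1.16 and 0.31 (exact permutation test, adjusted p = 0.0063, 0.0063 and 0.0208). In the last of these steps no rise of Samd7 or Samd11 itself was detected (−0.16 and −0.05, given above), while Crx went from 985 ± 97.7 CPM at D25 to 755 ± 133 at D30 (SD, n = 6, log2 fold change −0.38, edgeR adjusted p = 0.0142), which did not pass the threshold. Of 12 rod markers 10 were higher and 1, Otx2, lower at D30 than at D20. The median log2 fold change of the 12 was 3.10, beside 1.54 for Samd7 and 3.08 for Samd11. From D20 to D30 the log2 ratio to Crx rose by 1.29 for Samd7 and by 2.88 for Samd11. Setting the genes against Crx thus removed little of either rise, and these ratios do not measure the genes against the rod markers as a set. Ratios to rod markers other than Crx were not tested. The summed level of the 12 rod markers ran from 1545 to 2688 CPM at D20 and from 8161 to 16037 at D30, and none of the 12 was at 0 in every organoid.

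**Figure D2:**
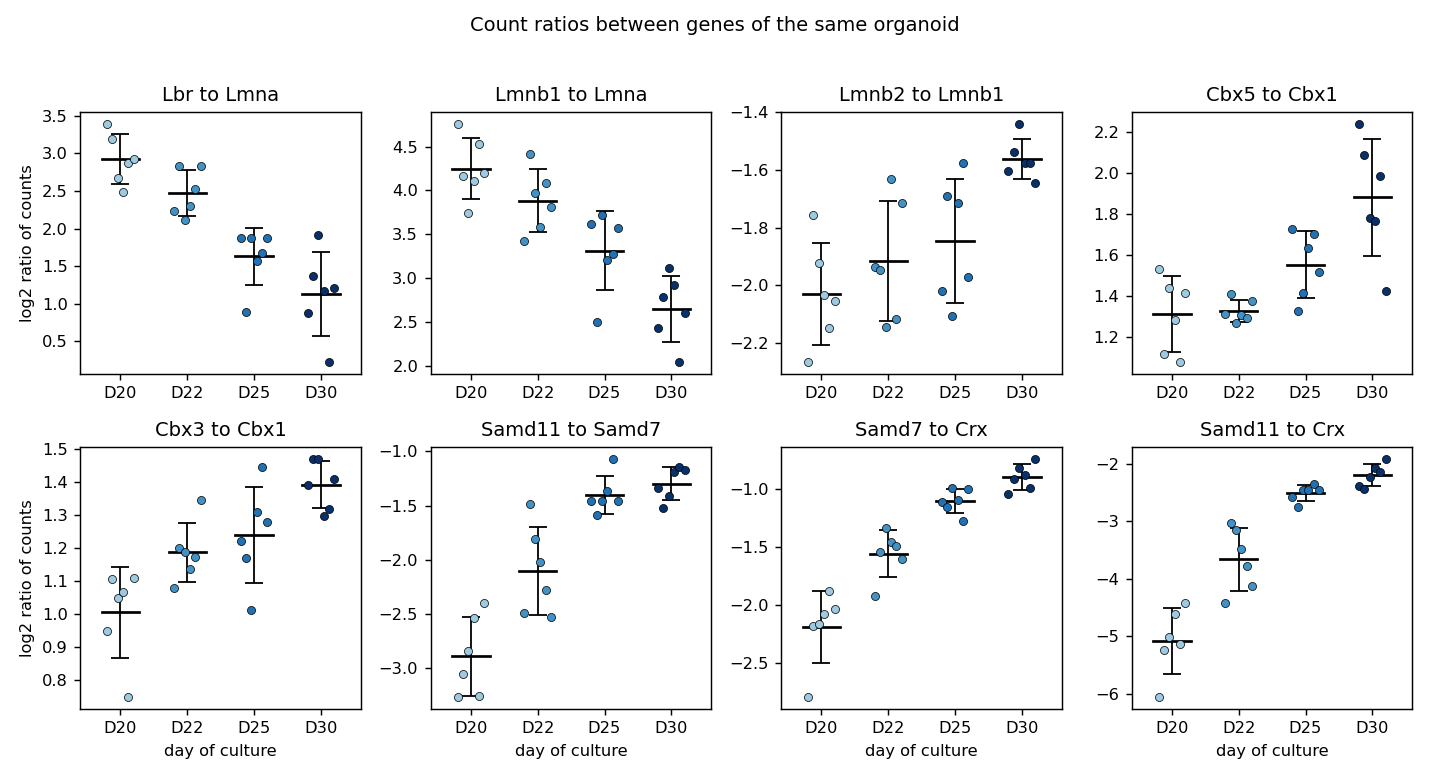
Log2 ratios of the counts of 2 genes in the same organoid (y axis) at D20, D22, D25 and D30 (x axis). Points are organoids, long bars the mean and whiskers the SD of 6 MRO. Lbr and Lmnb1 decline against Lmna, with median ratios going from 7.47 to 2.28 and from 18.1 to 6.46, while both Samd genes climb against Crx.

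The tethers of the nuclear periphery moved in opposite directions. Lbr (chr1:181815335-181843046), whose product spans the inner nuclear membrane and binds B-type lamins and HP1, lay between 39.5 and 61.3 CPM in D20 organoids (median 54.0) and between 29.2 and 45.0 in D22 organoids (median 38.6). D25 organoids lay between 29.6 and 36.4 (median 32.5), and those of D30 between 23.5 and 31.4 (median 27.0). Neighbouring timepoints overlapped, but no D30 organoid reached the lowest D20 organoid. Lbr was 1.85-fold lower at D30 than at D20 (log2 fold change −0.89, SE 0.12, edgeR adjusted p = 4.46e-07), in steps of −0.42, −0.21 and −0.25 of which none passed alone (adjusted p = 0.0305, 0.276 and 0.248). Exons of Lbr share 440 bases with Dnah14 and 69 with Gm26004, and these had at most 5 and 3 counts in an organoid.

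Lmna (chr3:88480147-88509956), which encodes lamins A and C, was measured at 5.31 to 8.39 CPM in D20 organoids, with a median of 6.89. D22 organoids held 5.72 to 8.64 CPM (median 6.58), D25 organoids 9.39 to 15.9 (median 9.75), and D30 organoids 8.34 to 20.1 (median 11.8). All D25 organoids were above all D22 organoids, yet this step of 0.65 did not pass (SE 0.19, adjusted p = 0.0258). From D20 to D30 Lmna rose 1.95-fold (0.96, SE 0.19, adjusted p = 0.000193), although the lowest D30 organoid lay just below the highest D20 organoid. The change from D25 to D30 was 0.28 (adjusted p = 0.496).

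The level of Lmna at D30 differed between organoids along with markers of other cell types. Its highest values, 20.1 CPM in replicate 5 and 16.0 CPM in replicate 1, were in the organoids with the highest summed mesenchymal and vascular markers (499 and 409 CPM, against 280 to 323 in the other four) and the highest summed Müller glia markers (3829.6 and 4970.2 CPM, against 1699.6 to 3076). Replicate 5 also had the highest summed bipolar (517 CPM) and ganglion cell markers (378 CPM) of D30, whereas replicate 1 ranked 6 and 3 of 6. Replicates 5 and 1 also had the highest summed progenitor markers of D30 (491 and 607 CPM, against 369.9 to 447 in the others). Their summed cone markers were the lowest (286 and 214 CPM, against 292 to 414). Of 11 tested mesenchymal and vascular markers 7 were higher and 1 lower at D30 than at D20, and of 10 Müller glia markers 6 were higher and 2 lower. The mesenchymal and vascular genes had a median log2 fold change of 2.97, yet their median sum went only from 295 to 321 CPM. Müller markers summed to between 1283 and 1714 CPM at D20, and mesenchymal and vascular markers to between 282 and 389, with none at 0 in every organoid. The part of any of these cell types in the rise of Lmna was not tested.

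Relative to Lmna, both Lbr and the B-type lamin gene Lmnb1 declined. Counts of Lbr per count of Lmna had a median of 7.47 at D20 (5.59 to 10.5), 5.32 at D22 (4.33 to 7.12), 3.44 at D25 (1.86 to 3.68) and 2.28 at D30 (1.17 to 3.76). Every D20 organoid was above every D30 organoid, and the log2 ratio fell by 1.79 (exact permutation test, adjusted p = 0.0063). The step from D22 to D25 was −0.84 (exact permutation test, adjusted p = 0.0063). The earlier step, −0.45 with an adjusted p of 0.0452 in the exact permutation test, was lost on leaving out any of 8 organoids (adjusted p from 0.0693 to 0.0942), and the later one, −0.50, did not pass (exact permutation test, adjusted p = 0.126).

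Lmnb1, which encodes lamin B1 and lies on chromosome 18, had its lowest and highest D20 organoid at 113 and 144 CPM and its median at 125. These values were 86.2, 122 and 99.3 for D22, 89.9, 126 and 103 for D25, and 69.5, 92.5 and 77.5 for D30. The D20 and D30 organoids did not overlap, and the difference was 1.60-fold (log2 fold change −0.68, SE 0.11, edgeR adjusted p = 5.70e-06). The step from D25 to D30 was −0.42 at an adjusted p of 0.0102, just outside the threshold, and passed in the test of annotated genes only (−0.48, adjusted p = 0.000953) and without D25 replicate 2, D25 replicate 5 or D30 replicate 4 (−0.47, −0.47 and −0.48, adjusted p = 0.00761, 0.0081 and 0.00622). Counts of Lmnb1 per count of Lmna had medians of 18.1, 14.8, 10.8 and 6.46, and the log2 ratio fell by 1.60 from D20 to D30 (exact permutation test, adjusted p = 0.0063). Its steps to D25 (−0.57) and to D30 (−0.67) passed in the exact permutation test (adjusted p = 0.0378 and 0.033) but were lost on leaving out any of 7 and any of 6 organoids (adjusted p up to 0.0779 and 0.0632).

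Lmnb2 (chr10:80901203-80918245), the gene of lamin B2, ranged from 28.8 to 35.7 CPM at D20 (median 29.8) and from 22.2 to 31.0 at D30 (median 27.2), with D22 and D25 between 23.9 and 31.7. The timepoints overlapped throughout. Its change over the interval was −0.21 (SE 0.10, adjusted p = 0.0982), which passed in the test of annotated genes only (−0.31, adjusted p = 0.00157). The ratio of Lmnb2 to Lmnb1 rose from a median of 0.242 (0.208 to 0.296) at D20 to 0.335 (0.320 to 0.368) at D30 without overlap, a log2 difference of 0.47 (exact permutation test, adjusted p = 0.0063). Of the 3 lamin genes, 1 thus rose, 1 fell and Lmnb2 did not pass the test.

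**Figure D3:**
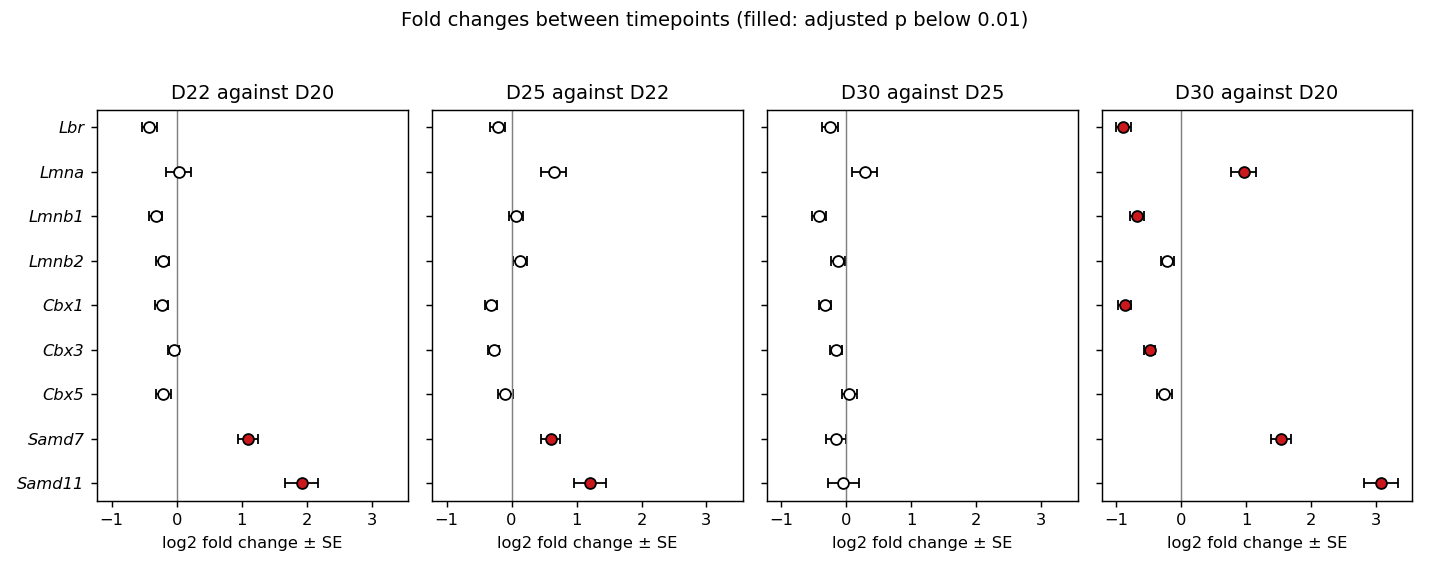
Log2 fold changes (x axis, 0 marked by a line) of the 9 genes (y axis) for each step and for D30 against D20. Whiskers are the SE and filled points have an edgeR adjusted p below 0.01. Samd7 and Samd11 pass at the first 2 steps, none passes from D25 to D30, and 7 genes pass over the whole interval.

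Of the HP1 genes, Cbx1 and Cbx3 fell from D20 to D30 and Cbx5 did not pass the test. Cbx1 (HP1 beta, chr11:96789127-96808640) lay between 153 and 208 CPM in D20 organoids (median 173) and between 142 and 165 in D22 organoids (median 149). D25 organoids lay between 95.4 and 145 (median 121), and those of D30 between 87.2 and 112 (median 95.3). Its successive log2 steps were −0.23, −0.31 and −0.32. No D30 organoid reached the D20 range, and the fall was 1.83-fold (−0.87, SE 0.09, edgeR adjusted p = 1.16e-08). None of its steps passed alone (adjusted p = 0.166, 0.0265 and 0.0317), but in the test of annotated genes only the second (−0.40, adjusted p = 0.00234) and the third (−0.38, adjusted p = 0.00486) did, and the third also without D25 replicate 5 (−0.38, adjusted p = 0.00947).

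Cbx3 (HP1 gamma, chr6:51470360-51483704), found in both euchromatin and heterochromatin, was measured at 296 to 420 CPM in D20 organoids, with a median of 342. D22 organoids held 300.2 to 397 CPM (median 337), D25 organoids 259.9 to 308 (median 285), and D30 organoids 224 to 293 (median 256). The D20 and D30 organoids were separated by a narrow gap. It was 1.40-fold lower at D30 than at D20 (−0.48, SE 0.09, adjusted p = 5.45e-05). Its largest step, −0.28 from D22 to D25, had an adjusted p of 0.0382 over all features and of 0.00311 over annotated genes only (−0.36).

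Cbx5 (HP1 alpha, chr15:103191544-103239816) had its lowest and highest D20 organoid at 388 and 498 CPM and its median at 436. These values were 344, 405 and 381 for D22, 310.3, 390.3 and 363 for D25, and 234, 527 and 351 for D30. The D30 organoids spread the widest and enclosed the range of D20. The difference of −0.26 over the interval did not pass (SE 0.12, adjusted p = 0.0798). It passed without D30 replicate 1, the organoid at 527 CPM (−0.39, adjusted p = 0.0028), and over annotated genes only (−0.36, adjusted p = 0.00493). That organoid also had the highest summed Müller glia and progenitor markers of D30, 4970.2 and 607 CPM. Its summed rod, cone and bipolar markers were the lowest of D30, 8161, 214 and 304 CPM. The part of any of these cell types in its level of Cbx5 was not tested.

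Within organoids the balance of the HP1 genes shifted away from Cbx1. Counts of Cbx5 per count of Cbx1 went from a median of 2.55 (2.11 to 2.89) at D20 to 3.70 (2.68 to 4.72) at D30, a log2 difference of 0.57 (exact permutation test, adjusted p = 0.0139) with some overlap. Counts of Cbx3 per count of Cbx1 went from 2.08 (1.68 to 2.15) to 2.64 (2.46 to 2.77) without overlap, a log2 difference of 0.39 (exact permutation test, adjusted p = 0.0063). The steps of both ratios from D25 to D30, 0.33 and 0.15, passed narrowly (exact permutation test, adjusted p = 0.0491 and 0.0499), and each was lost on leaving out any of 10 organoids (adjusted p up to 0.0924 and 0.108).

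Cbx3 and Cbx5 each start close to a gene of an abundant RNA-binding protein on the other strand. The start of Hnrnpa2b1 lies 466 bases from that of Cbx3, and it changed by −0.22 from D20 to D30 (SE 0.09, adjusted p = 0.0627). The start of Hnrnpa1 lies 616 bases from that of Cbx5, and Hnrnpa1 fell by 1.12 on the log2 scale (SE 0.11, adjusted p = 1.14e-09), more than the −0.26 of Cbx5 itself. The difference between the genes of a pair was not tested.

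Markers of proliferating progenitors fell over the same days. All 14 progenitor markers were lower at D30 than at D20, none was at 0 in every organoid, and their summed level lay between 1032 and 1706 CPM at D20 and between 369.9 and 607 at D30, without overlap. Lbr, Lmnb1, Cbx1 and Cbx3 were lower in the same comparison. The part of the progenitors in these falls was not tested.

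Levels could be compared between genes only roughly, per kilobase (kb) of annotated exon. That length joins the exons of all annotated transcripts of a gene, and which of these were expressed was not tested. At D20 the order ran from Cbx3 (59.3 ± 7.83 CPM per kb, SD, n = 6) and Cbx5 (48.5 ± 3.99) over Lmnb1 (42.6 ± 3.61), Cbx1 (41.4 ± 5.27) and Samd7 (35.2 ± 7.45) to Lbr (10.7 ± 1.85), Lmnb2 (7.21 ± 0.586), Samd11 (5.52 ± 2.00) and Lmna (1.15 ± 0.195). Only Samd7 with Lbr, and Samd11 with Lmna, were neighbours whose organoids did not overlap. At D30 Samd7 led (102 ± 23.4), followed by Samd11 (46.8 ± 13.1), Cbx3 (42.4 ± 4.19), Cbx5 (40.6 ± 10.7), Lmnb1 (26.6 ± 3.24) and Cbx1 (22.7 ± 2.08), and then by Lmnb2 (6.22 ± 0.730), Lbr (5.76 ± 0.570) and Lmna (2.24 ± 0.734). At D30 the neighbours that did not overlap were Cbx1 with Lmnb2 and Lbr with Lmna. Lmna had the lowest level per kb of the 9 genes at each timepoint in spite of its rise, and Samd11 moved from the eighth place to the second.

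**Figure D4:**
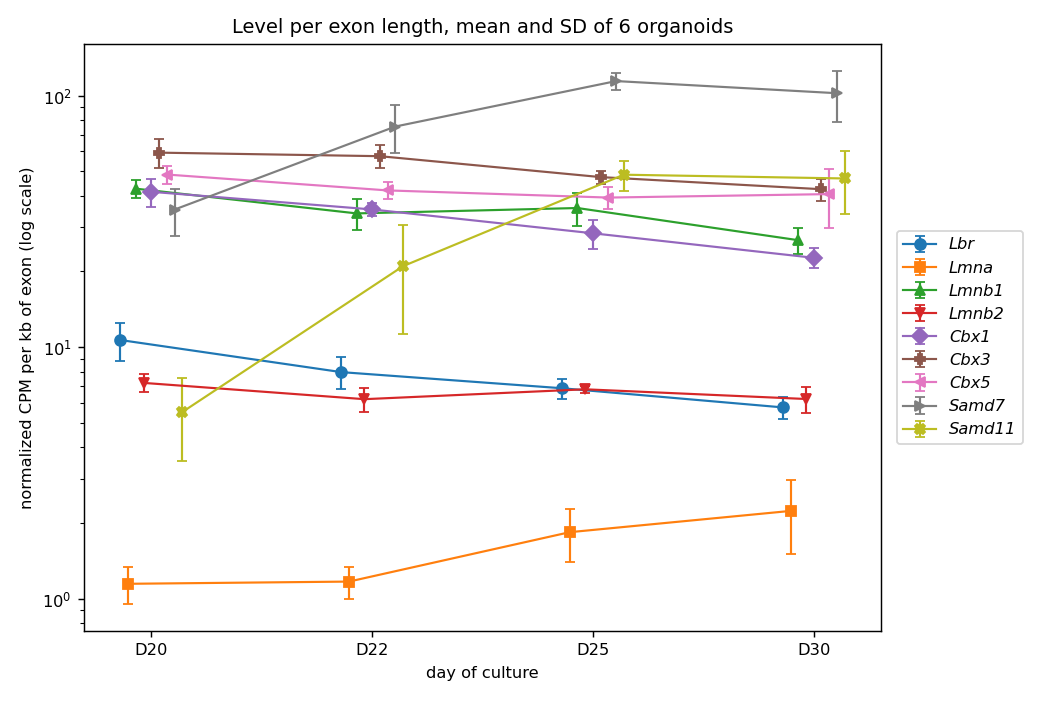
Normalized CPM per kb of exon (y axis, log scale) at D20, D22, D25 and D30 (x axis). Markers are the mean and whiskers the SD of 6 MRO. Samd7 goes from 35.2 to 102 and Samd11 from 5.52 to 46.8 CPM per kb, while Lmna stays lowest, between 1.15 and 2.24.

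Among 20 genes of proteins that partner the lamina and nuclear envelope, 5 were higher, 2 lower and 13 not called at D30 against D20. Beside the counts of this and the following lists stand 26.8% of all features and 41.8% of annotated genes called in the same comparison (25.1% higher, 16.7% lower). Syne1, which encodes nesprin-1 of the complex that links the nucleus to the cytoskeleton, rose from 47.5 ± 6.28 to 220 ± 33.7 CPM (SD, n = 6, edgeR adjusted p = 7.82e-13). Icmt, whose enzyme methylates the prenylated end of lamins among other proteins, rose from 71.1 ± 7.21 to 313 ± 46.4 CPM (adjusted p = 7.24e-15) and passed at each of the 3 steps. Tmem38a, a cation channel gene of the reticulum and nuclear membranes, rose by 1.12 on the log2 scale (adjusted p = 4.07e-08), and the gene of lamina-associated polypeptide 2, Tmpo, fell by 0.86 (adjusted p = 5.02e-08). The other 3 called genes, named here after their values were seen, were Syne3 and Tor1aip1, which rose by 2.14 and 0.60, and Lemd2, which fell by 0.80. The list had a median log2 fold change of 0.04.

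Among 20 genes of the machinery that writes or reads methylated lysine 9 of histone H3 and lysine 20 of histone H4 or keeps heterochromatin, 3 were higher, 4 lower and 13 not called from D20 to D30, with a median of −0.21. Ehmt1, a histone H3 lysine 9 methyltransferase gene, fell from 244 ± 15.0 to 147 ± 13.7 CPM (adjusted p = 6.61e-09). Uhrf1, needed to maintain DNA methylation after replication, fell by 1.10 on the log2 scale (adjusted p = 0.000441), and Chaf1a, a subunit of the chromatin assembly factor at replication forks, fell by 0.89 (adjusted p = 0.000102). Setdb2, another methyltransferase gene of the same mark, rose by 0.72 (adjusted p = 0.00203). Named after their values were seen, Suv39h1 was higher by 0.39, and Trim28 fell by 0.51.

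SAMD7 and SAMD11 act with PRC1, whose 21 listed subunit genes gave 3 higher, 3 lower and 15 not called, with a median of −0.10. Cbx2, a Polycomb chromobox gene, fell from 13.5 ± 3.04 to 3.78 ± 0.782 CPM (adjusted p = 4.20e-09), and Cbx6, another of that family, rose from 32.2 ± 2.30 to 57.4 ± 8.15 CPM (adjusted p = 2.65e-07). The ring finger subunit genes Pcgf2 and Pcgf3 fell by 0.94 and 0.91 on the log2 scale (adjusted p = 6.48e-05 and 9.90e-09). Bmi1 and Yaf2, named after their values were seen, rose by 0.58 and 0.46. Summed over the list, PRC1 genes ran from 830.0 to 874 CPM at D20 and from 775 to 871 at D30, and the totals overlapped.

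Linker histones and architectural proteins had 1 gene higher, 7 lower and 4 not called of 12, with a median of −0.76. Hmga1, an AT-hook protein gene, fell from 38.0 ± 4.89 to 8.22 ± 1.64 CPM (adjusted p = 8.04e-13) and passed at each step. Hmgb2 and Hmgn5, of the high mobility group families that bend DNA or bind nucleosomes, fell by 2.08 and 1.88 on the log2 scale (adjusted p = 1.18e-09 and 1.64e-10), and the linker histone gene H1f0 fell by 1.13 (adjusted p = 1.92e-10). Of 4 genes of the list with a positive log2 fold change, the only one called higher was Hmgn1, by 0.99 (adjusted p = 1.17e-08), named after its values were seen.

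**Figure D5:**
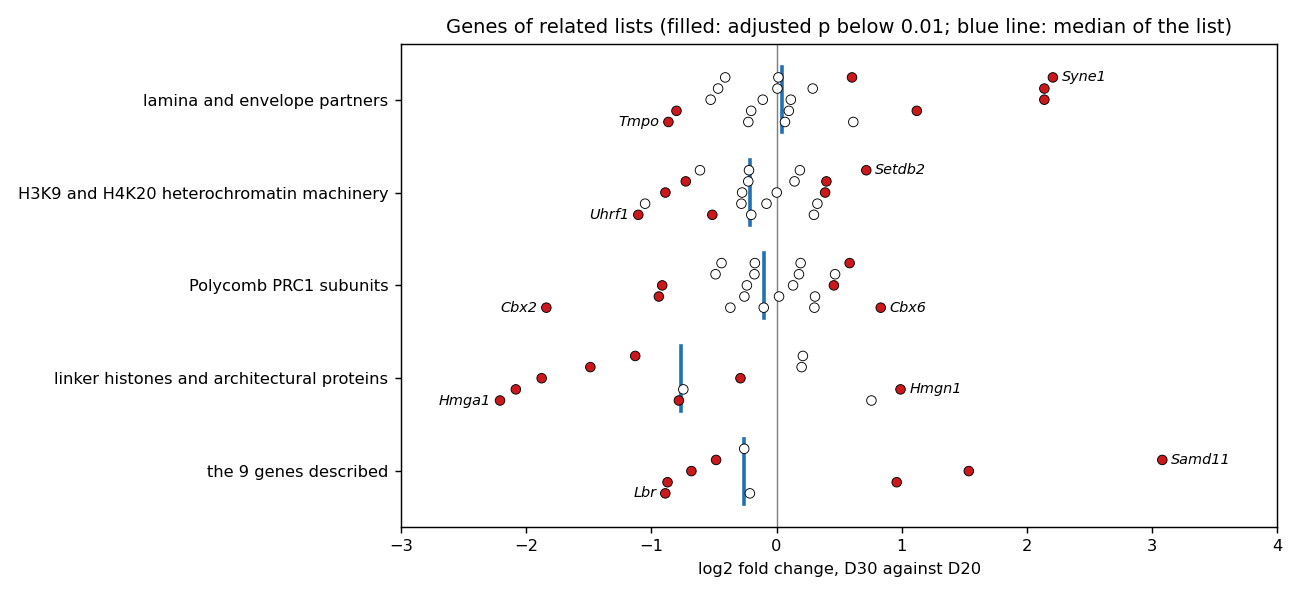
Log2 fold changes of D30 against D20 (x axis) for the tested genes of 4 related lists and for the 9 genes (y axis, points spread vertically for sight). Filled points have an edgeR adjusted p below 0.01, blue lines are list medians, and the lowest and highest gene of each list are named. Medians lie at 0.04 for lamina partners, −0.21 for the lysine 9 and 20 machinery, −0.10 for PRC1 and −0.76 for linker histones and architectural proteins.

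Cone genes are among those that SAMD7 is known to keep silent in rods. Of 10 tested cone markers 3 were higher, 5 lower and 2 not called at D30 against D20, and their summed level lay between 675 and 829 CPM at D20 and between 214 and 414 at D30, without overlap. Named after their values were seen, Opn1sw, the gene of the short-wavelength opsin, fell by 2.88 on the log2 scale (adjusted p = 5.24e-08), Kcne2 by 2.47, Rxrg by 2.08, Gngt2 by 1.74 and Pde6c by 1.21. The phototransduction genes Arr3 and Gnat2 rose by 1.22 and 0.90 (adjusted p = 0.00158 and 0.00499), and the thyroid hormone receptor gene Thrb by 0.44. These directions were mixed, and no relation to the level of Samd7 or Samd11 was tested.

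Likeness of pattern was measured as the root mean square difference of centred log2 values over the 24 organoids, against 10853 annotated genes whose mean reached 100 normalized counts. Samd7 was most like Pdc, the gene of phosducin, a photoreceptor protein that binds transducin subunits (0.13), followed by Ppp3cc (0.18) and the rod transcription factor gene Nrl (0.18). Samd11 was nearest to the chloride channel gene Ano2 (0.27) and to the photoreceptor thioredoxin-like gene Nxnl1 (0.33). Lbr was nearest to the exonuclease gene Eri1, the spindle gene Haus6 and Sfr1 (0.16 each), and Lmnb1 to the splicing kinase gene Srpk1 (0.13), Zfp646 (0.16) and the histone chaperone gene Supt16 (0.16). Cbx5 was nearest to Nsd2, a histone methyltransferase gene (0.11), Ttc3 (0.12) and Phf6 (0.12), and Lmna to Prdx5, Chid1 and Ppp2r5a (0.25 each). The differences are not scaled by how much a gene varied. The root mean square of a gene's own centred values was 0.24 for Cbx5, 0.29 for Lmnb1, 0.36 for Lbr, 0.47 for Lmna, 0.72 for Samd7 and 1.36 for Samd11. A smaller difference for 1 of these genes than for another therefore does not mean a closer match. These values are descriptions over organoids that share timepoints.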

How the data were processed

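The authors used HISAT2 to align trimmed reads to GRCm38/mm10, StringTie (version 1.3.3) to assemble transcripts and HTSeq (version 0.6.1) to count reads on annotated genes and assembled loci. The deposited values are these whole-number counts per feature, without normalization, for 126602 features (46603 annotated genes and 79999 assembled loci) in 24 organoids. Summary lines were left out. Groups and replicate numbers came from the sample titles.

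Features below a base mean of 10 were dropped, which left 16253 annotated genes and 30696 loci. TMM normalization was followed by glmQLFit and glmQLFTest in edgeR (version 4.0.16, R version 4.3.3), in 1 fit of all 24 organoids with timepoint as the only term. Features were adjusted by Benjamini-Hochberg together, and the threshold was 0.01. Standard errors were derived from the test statistic. The common biological coefficient of variation was 0.3846, which exceeds the counting error. The fit was tested before use on simulated data with less spread between organoids than these data. Changes were placed there only between D20 and D22 on one side and D25 and D30 on the other. That test therefore does not measure how the fit performs at the spread of these data. Count ratios within organoids were compared by exact permutation tests with a threshold of 0.05 after adjustment over 32 tests. Successive comparisons share the organoids of a timepoint. No 2 libraries of a timepoint agreed within sampling noise (lowest chi-square per degree of freedom 6.35 over 60 pairs).

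Symbols and exon lengths came from GENCODE (release M21, build GRCm38), which matched 46005 identifiers, and promoter windows from RefSeq. Alternatives were DESeq2 (version 1.42.0), its size factors, no filter, filterByExpr, annotated genes only, the compared timepoints only, a replicate block, a difference of medians and leaving out each organoid. The 9 genes and the lists were chosen with earlier results of these data known. Beside the 9 genes, the text names up to 4 called genes per chromatin or lamina list with the largest change from D20 to D30 and a mean of at least 100 normalized counts, the 3 genes nearest in pattern to 6 of the 9, markers, and overlapping or adjacent genes. Of the genes this rule or the lists select, 2 are not reported here. The plots were made with matplotlib (version 3.10.9).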

Additional observations from a re-analysis of the deposited data

Results flagged for a closer look

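In all, 4 values stood alone in their group of 6 organoids by Dixon's criterion, among 68 groups looked at, where chance gives about 1 in 20. Lmna was at 15.9 normalized CPM in D25 replicate 2, against 9.39 to 10.3 in the other D25 organoids. The log2 ratio of Lbr to Lmna was 0.90 in the same organoid, against 1.56 to 1.88 in the others. That organoid had the lowest summed progenitor markers of D25, 292 CPM against 474 to 1128, while its summed mesenchymal and vascular markers (301 CPM) and Müller glia markers (1297 CPM) ranked 4 of 6, unlike in the 2 D30 organoids with the most Lmna. Samd7 was at 83.3 normalized CPM in D20 replicate 1, against 140.04 to 170 in the others. The log2 ratio of Samd7 to Crx was −2.79 there, against −2.18 to −1.88, and its summed rod markers were the lowest of D20, 1545 CPM against 2139 to 2688. Without D25 replicate 2 the log2 fold change of Lmna from D22 to D25 was 0.51, and without D20 replicate 1 that of Samd7 from D20 to D22 was 0.97.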

How the results depend on the processing

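Fold changes of the 9 genes kept their direction and their side of the threshold in 242 of 252 comparisons with other settings, and under DESeq2, its size factors, no filter, filterByExpr, the compared timepoints only and the replicate block in all of them. Every exception came from testing annotated genes only, where 2 genes were called from D25 to D30, Cbx3 changed by 0.0035 from D20 to D22, Lmnb1 by −0.019 from D22 to D25 and Cbx5 by −0.017 from D25 to D30, and the remaining 7 are given beside their genes. Under that setting the median shift in log2 fold change of annotated genes was 0.050 for D22 against D20 and −0.089 for D25 against D22. It was −0.051 for D30 against D25 and −0.090 for D30 against D20. With a difference of medians, the ratios of Lmnb1 to Lmna (−0.73), Cbx5 to Cbx1 (0.31) and Cbx3 to Cbx1 (0.15) no longer passed from D25 to D30, and Cbx5 to Cbx1 from D20 to D22 was −0.040. The cause was not tested.

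Replicate numbers do not pair the organoids, since same-numbered organoids of different timepoints had correlations of deviations between −0.09 and 0.26 (median 0.01, 36 pairs, against 0.004 between other numbers). As a replicate block, an exact sign-flip test gave the same differences, but its smallest adjusted p was 0.0588, so no ratio passed. They were −0.45, −0.84 and −1.79 for Lbr to Lmna (D22 against D20, D25 against D22, D30 against D20), −0.57, −0.67 and −1.60 for Lmnb1 to Lmna (D25 against D22, D30 against D25, D30 against D20), 0.28 and 0.47 for Lmnb2 to Lmnb1 (D30 against D25 and D20), 0.23, 0.33 and 0.57 for Cbx5 to Cbx1, 0.18, 0.15 and 0.39 for Cbx3 to Cbx1, 0.79, 0.70 and 1.59 for Samd11 to Samd7, 0.63, 0.45, 0.21 and 1.29 for Samd7 to Crx, and 1.42, 1.16, 0.31 and 2.88 for Samd11 to Crx.

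Leaving out each organoid gave 2 genes called from D20 to D22, 1 to 2 from D22 to D25, 0 to 2 from D25 to D30, 7 to 8 from D20 to D30 and 7 over the 4 timepoints. Directions turned within −0.063 to 0.10 for Lmna and −0.11 to 0.0064 for Cbx3 from D20 to D22, and within −0.088 to 0.15 for Cbx5 and −0.17 to 0.058 for Samd11 from D25 to D30. Ratios that lost or gained a call ranged from −0.54 to −0.36 (Lbr to Lmna) and −0.47 to −0.27 (Lmnb1 to Lmna) for D22 against D20, from −0.66 to −0.41 (Lmnb1 to Lmna) for D25 against D22, and from −0.66 to −0.32 (Lbr to Lmna), −0.83 to −0.55 (Lmnb1 to Lmna), 0.26 to 0.42 (Cbx5 to Cbx1) and 0.11 to 0.19 (Cbx3 to Cbx1) for D30 against D25, while Cbx5 to Cbx1 for D22 against D20 turned between −0.030 and 0.061. All 8 ratios kept their call for D30 against D20 in each of 12 omissions. Depth limits Lmna most, at 76 to 308 counts per organoid.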

Other observations

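The other cell type markers moved as follows from D20 to D30 (edgeR, adjusted p below 0.01). Of 10 bipolar cell markers 6 were higher and 2 lower, and their sum lay between 194 and 269 CPM at D20 and between 304 and 517 at D30. Of 10 ganglion cell markers 1 was higher and 6 were lower, and of 9 tested amacrine and horizontal cell markers 2 were higher and 2 lower. Of 6 tested pigment epithelium markers 2 were higher and 1 lower, and their sum at D30 ran from 46.4 CPM in replicate 4 to 2742 and 2537 CPM in replicates 2 and 6. The libraries of replicates 2 and 6 had 10.2 and 11.5 CPM of Lmna, within the range of the other D30 organoids.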
